A study of Mus musculus with 70 samples.

Results

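Among 100-cell pools sorted from wild-type mouse bone marrow, common lymphoid progenitors that carry the integrin α4β7 (α4β7 CLP) were set against common lymphoid progenitors (CLP). The α4β7 CLP group held 5 libraries and the CLP group 8 after technical repeats were added to their parent, 13 of the 66 libraries that the series' 70 samples make. Libraries were chosen by genotype and cell type as the labels give them, and no measured value entered that choice. Replicates 4 and 5 of α4β7 CLP and replicates 6 to 8 of CLP came from batch 1, and the rest from batch 2. Both groups are labelled wild type, and the labels name no treatment. Strain, sex, age, the number of animals pooled and the sort gates are not given in the sources used here, nor is it stated whether CLP were gated as α4β7-negative. RNA was read by CEL-seq, which counts a tag near the 3′ end of polyadenylated transcripts after linear amplification. Replicates are separate wells, no label says that they came from separate animals, and p-values therefore measure a spread between libraries that may be technical.

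CLP are bone marrow cells that can give rise to B, T, natural killer and innate lymphoid cells. They are known for the receptors of FLT3 ligand and interleukin 7, for low KIT, and for transcribing the recombination machinery before any antigen receptor is assembled. The integrin α4β7 is a pair of an α4 chain, encoded by Itga4, and a β7 chain, encoded by Itgb7. It binds the gut vascular addressin MAdCAM-1. In mouse bone marrow, lymphoid progenitors that express it are known to be enriched for precursors of innate lymphoid cells, with reduced B cell potential.

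Total counts were 124884 to 514307 per α4β7 CLP library (median 186085) and 81976 to 246119 per CLP library (median 140517.5), with counts on 7058 to 10570 and on 6835 to 8589 genes. Levels below are CPM, gene counts divided by the library's total over the genes tested and its TMM scaling factor. Differences are log2 fold changes (± SE) of α4β7 CLP over CLP from edgeR's quasi-likelihood fit with a batch term, and a call needs an adjusted p (Benjamini-Hochberg over the 10972 genes tested) below 0.05. The largest axis of variation among the 13 libraries separated the batches (21.7% of the variance). The second (11%) set α4β7 CLP replicate 3 apart from the others, and the third (9.9%) CLP replicate 1, without which the same 5 genes were called. Library pairs of the same population and batch had a median correlation across genes of 0.46 and pairs of different populations in the same batch also 0.46, while pairs across batches had 0.33 in either case. A lower level in such pools can come from fewer cells of a type or from less RNA per cell, which cannot be told apart.

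Itgb7 stood at 318.2, 169.7, 16.4, 309.5 and 167.3 CPM in α4β7 CLP replicates 1 to 5, against 0 to 237.5 CPM in CLP (median 20.8). Itga4 stood at 390.3, 1166.9, 336.1, 817.1 and 669.4 CPM in α4β7 CLP, against 127.3 to 618.6 CPM in CLP (median 366.8). Medians of both chains were higher in α4β7 CLP, but the groups overlapped. Neither difference passed (Itgb7 1.96 ± 0.77, adjusted p = 0.453; Itga4 0.91 ± 0.43, adjusted p = 0.624). Replicate 3 had the lowest level of each chain among the α4β7 CLP libraries. Of the CLP receptors, Flt3 was at 216.6 to 529.9 CPM in α4β7 CLP and 178.2 to 575.1 CPM in CLP (−0.33 ± 0.71, adjusted p = 1). Il7r, the interleukin 7 receptor α chain, was at 822.5, 730.9, 90.2, 390.0 and 529.3 CPM in α4β7 CLP, against 375.7 to 1257.6 CPM in CLP (−0.60 ± 0.48, adjusted p = 0.92). All 4 genes had counts in 5 of 5 α4β7 CLP libraries, and the integrin transcripts alone did not separate the groups.

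**Figure D1:**
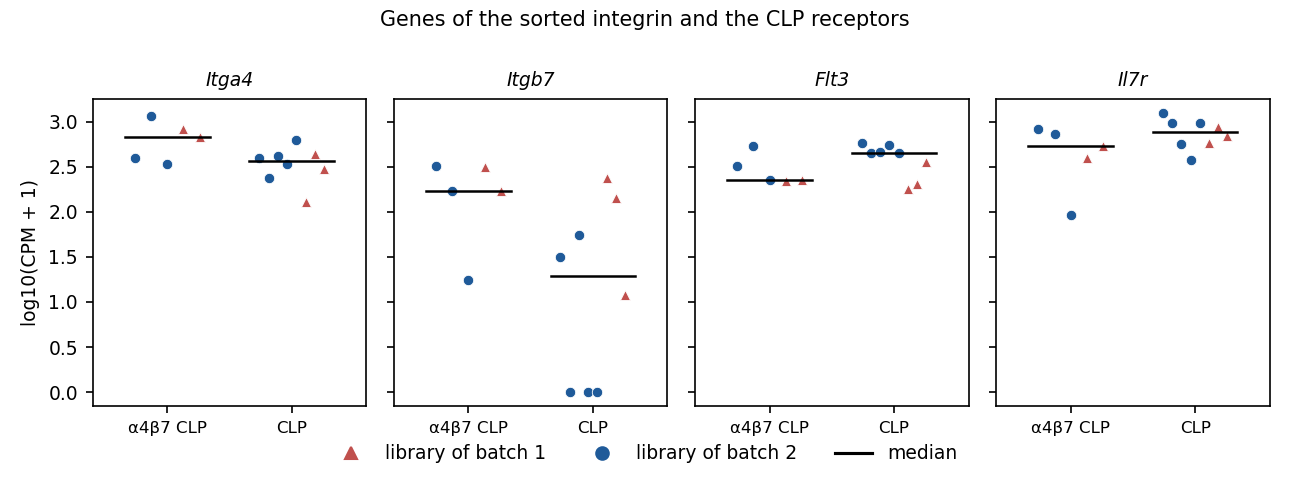
Levels as log10(CPM + 1) of the integrin chain genes Itga4 and Itgb7 and the receptor genes Flt3 and Il7r, with 1 point per library (triangles batch 1, circles batch 2) and a line at each group's median. Itgb7 was at 0 in 3 of 8 CLP libraries, and the 2 groups overlapped for each of the 4 genes.

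In α4β7 CLP, 3 genes rose and 2 fell relative to CLP. Cpa3, Tpra1 and Ccr2 were higher, and Rag1 and the unannotated gene Entrez_100503944 were lower. These 5 genes are 0.0456% of those tested (0.0273% higher, 0.0182% lower). An unadjusted p under 0.05 was reached by 831 genes (7.57%), 486 of them higher (4.43%) and 345 lower (3.14%). Counts at that threshold in the gene lists below are to be read beside these shares. With DESeq2, 6 genes were higher and 7 lower, and with limma-voom 10 were higher and 18 lower. Both sets included the 5.

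Cpa3 (chr3:20215616-20242209, GRCm38) encodes carboxypeptidase A3, a protease best known from mast cell granules. It was at 30.0, 83.5, 442.7, 130.0 and 58.4 CPM in α4β7 CLP replicates 1 to 5 and at 0 counts in all 8 CLP libraries. Every α4β7 CLP library therefore lay above every CLP library, in each batch. Against the limit that 3 counts over the whole CLP group allow (2.69 CPM), the level was at least 55.4-fold higher in α4β7 CLP (adjusted p = 0.000293), and at least 28.1-fold higher without replicate 3. Cpa3 passed with any 1 of the 13 libraries left out (adjusted p up to 0.00889). It was not past the threshold in batch 1 alone (adjusted p = 0.145), in batch 2 alone (adjusted p = 0.0995) or without α4β7 CLP replicates 3 and 4 together (adjusted p = 0.0852). Over the 10 alternatives that tested it apart from leaving out 1 library, the adjusted p ranged from 1.45e-06 to 0.145. No count fell on Cpa3 in the 12 control wells, which held spike-in RNA and no cells (51 to 9439 counts a well).

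Other transcripts of mast cells and basophils were uneven between libraries. Of the 17 genes of that list, 6 had no count in any of the 13 libraries. These were Ms4a2, which encodes the β chain of the high-affinity IgE receptor, and the protease genes Mcpt1, Mcpt4, Cma1, Tpsb2 and Tpsab1. Hdc, for histamine synthesis, had no count in α4β7 CLP. The basophil proteases Mcpt8 and Prss34 were found mostly in α4β7 CLP replicate 4 (290.9 and 92.8 CPM), with Mcpt8 also at 6.0 and 41.0 CPM in replicates 1 and 3. Fcer1a was at 18.6 CPM in replicate 4 alone, and Gata2, a transcription factor of stem, mast and basophil cells, was at 6.0 and 18.6 CPM in replicates 1 and 4. Cd200r3, a receptor of mast cells and basophils, was at 180.4 CPM in replicate 3, the library highest in Cpa3, and at 12.4 CPM in replicate 4, against 0 to 23.0 CPM in CLP (3.30 ± 1.56, adjusted p = 0.616). Hpgds, for prostaglandin D2 synthesis, was at 144.1 CPM in replicate 1 and 0 to 7.8 CPM in the others, against 0 to 18.3 CPM in CLP. The whole list took 0.089 to 0.262% of counts in α4β7 CLP and 0.052 to 0.17% in CLP, of which Fcer1g and Srgn, common to many blood cells, had counts in every library. It was highest in replicate 3 (0.262%), then in replicates 1 (0.176%) and 4 (0.144%). Of 11 members tested, Cpa3 was the only one called, and Cpa3, Cd200r3 and Fcer1g were higher and Hdc lower at an unadjusted p under 0.05. Their part in the Cpa3 value was not tested.

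Ccr2 (chr9:124101918-124109140) encodes a chemokine receptor of monocytes and of several lymphoid progenitors. It was at 12, 13.1, 8.2, 328.1 and 85.6 CPM in α4β7 CLP, against 0 to 11.9 CPM in CLP (median 4.2), a log2 fold change of 3.73 ± 0.76 (adjusted p = 0.011). The high values were those of batch 1. In batch 1 the α4β7 CLP libraries had 85.6 and 328.1 CPM and the CLP libraries 0 to 8.5 CPM (5.80, adjusted p = 0.000201). In batch 2 they had 8.2 to 13.1 CPM and 0 to 11.9 CPM (0.75, adjusted p = 1). Without α4β7 CLP replicate 4 the gene was no longer called (2.38, adjusted p = 0.283). Some myeloid transcripts were high in the same libraries, and others were not. F13a1, a monocyte gene, was at 191.9 and 167.3 CPM in replicates 4 and 5, the 2 libraries high in Ccr2, and had no count in the other α4β7 CLP libraries or in CLP (adjusted p = 0.342). Csf3r, the granulocyte colony-stimulating factor receptor gene, was at 24.8 and 116.8 CPM in replicates 4 and 5 and at 0 in the other α4β7 CLP libraries, against 0 to 76.4 CPM in CLP. Replicate 4 also held the granulocyte transcripts described further on. Of these, S100a8 and S100a9 were at 0 and 3.9 CPM in replicate 5, below replicate 1 (108.1 and 90.1 CPM). The share of counts of myeloid markers in replicate 5 (0.076%) lay within the CLP range (0.009 to 0.092%). The part of myeloid cells in the Ccr2 value was not tested.

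Tpra1 (chr6:88902251-88912240) encodes a multi-pass membrane protein. It was at 12, 39.2, 1606.8, 74.3 and 50.6 CPM in α4β7 CLP, against 0 to 17.0 CPM in CLP (median 3.1), a log2 fold change of 6.26 ± 1.24 (adjusted p = 0.00963). Of the α4β7 CLP libraries, 4 lay above all of CLP, and replicate 1 lay within its range. Replicate 3 set the size of the difference. Without it the log2 fold change was 2.74 and the gene was not called (adjusted p = 0.771).

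Rag1 (chr2:101638252-101649532) encodes the catalytic subunit of the recombinase that cuts antigen receptor genes. It was at 0, 23.5, 0, 18.6 and 0 CPM in α4β7 CLP replicates 1 to 5, against 293.6 to 733.4 CPM in CLP (median 479.4). The groups were far apart in each batch, with at most 18.6 CPM against at least 363.5 CPM in batch 1 and at most 23.5 CPM against at least 293.6 CPM in batch 2. The counts behind this were 12 in all of α4β7 CLP and 557 in all of CLP. The log2 fold change was −5.71 ± 1.16, a 52.3-fold lower level (adjusted p = 0.0138). It stayed between −6.34 and −5.41 when any 1 library was left out, and the adjusted p went over the threshold without α4β7 CLP replicate 1 (0.0783), 3 (0.155) or 5 (0.0845), the 3 libraries at 0. In batch 1 alone Rag1 was called (−5.79, adjusted p = 0.0131), and in batch 2 alone it was not (−5.65, adjusted p = 0.551).

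Other genes of recombination were not called. Rag2, the partner subunit and the neighbour of Rag1 in the genome, was at 78.1, 41.8, 49.2, 55.7 and 38.9 CPM in α4β7 CLP, against 15.3 to 367.8 CPM in CLP (median 90.4; −1.02 ± 1.09, adjusted p = 0.974). The α4β7 CLP values of Rag2 lay inside the CLP range. Rag2 overlaps Iftap, which had 40 counts in the 13 libraries, and the counting is not stated to use strand. Dntt, which encodes the terminal transferase that adds bases to receptor joints, was among the most abundant transcripts tested here, at 4514.9, 3435.4, 1459.2, 1881.7 and 1439.9 CPM in α4β7 CLP, against 3095.9 to 14358.3 CPM in CLP (median 9730.5). Within each batch every α4β7 CLP library lay below every CLP library, with 1439.9 to 1881.7 CPM against 3095.9 to 4373.0 CPM in batch 1 and 1459.2 to 4514.9 CPM against 9122.7 to 14358.3 CPM in batch 2. The shared fit did not call it (−1.52 ± 0.97, adjusted p = 0.803). The fit of the compared groups alone (3836 genes tested) did (−1.67, adjusted p = 0.000789), as did limma-voom (−1.60, adjusted p = 0.00703). The repair genes Xrcc4, Xrcc5, Xrcc6, Lig4, Prkdc, Dclre1c and Poll and the cofactors Hmgb1 and Hmgb2 were tested and not called. Of the 14 genes of the list 12 were tested, 1 was called lower and none higher, and the median log2 fold change was −0.19, beside 0.08 over all tested genes with a count in either group. The list took 0.199 to 0.453% of counts in α4β7 CLP and 0.456 to 1.46% in CLP, of which Dntt alone made up 63.1 to 89.2% in α4β7 CLP and 70.2 to 93.4% in CLP. Without Dntt the share was 0.049 to 0.083% in α4β7 CLP and 0.097 to 0.292% in CLP.

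The promoters of Rag1 and Rag2, neighbours of which only Rag1 passed the test, and of Cpa3, called the other way, are given from RefSeq (GRCm38.p6). Each covers 250 bases before and 50 bases after the annotated start, 5′ to 3′ on the gene's strand. Capitals mark CANNTG, the E-box that E proteins bind, and AGATAA or TGATAA, motifs of GATA factors, searched on both strands. They are Rag1 at chr2:101649483-101649782 (minus strand), Rag2 at chr2:101624462-101624761 (plus strand) and Cpa3 at chr3:20242132-20242431 (minus strand).
Rag1: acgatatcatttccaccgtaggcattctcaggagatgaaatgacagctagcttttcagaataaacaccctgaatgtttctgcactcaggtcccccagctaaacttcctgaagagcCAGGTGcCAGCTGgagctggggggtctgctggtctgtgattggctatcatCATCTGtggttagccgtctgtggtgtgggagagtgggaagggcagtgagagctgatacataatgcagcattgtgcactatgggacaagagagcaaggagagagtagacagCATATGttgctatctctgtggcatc
Rag2: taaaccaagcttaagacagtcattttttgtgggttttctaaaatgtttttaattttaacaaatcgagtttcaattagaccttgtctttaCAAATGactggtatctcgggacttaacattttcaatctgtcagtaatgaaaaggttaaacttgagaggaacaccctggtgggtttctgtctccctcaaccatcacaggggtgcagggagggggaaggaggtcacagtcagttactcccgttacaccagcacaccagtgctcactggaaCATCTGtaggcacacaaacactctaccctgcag
Cpa3: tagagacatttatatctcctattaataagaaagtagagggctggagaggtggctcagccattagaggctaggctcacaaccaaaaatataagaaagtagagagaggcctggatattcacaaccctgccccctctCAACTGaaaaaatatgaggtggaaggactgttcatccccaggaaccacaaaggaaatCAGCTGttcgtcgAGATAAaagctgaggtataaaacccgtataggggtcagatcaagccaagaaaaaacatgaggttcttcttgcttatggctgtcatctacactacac
The Rag1 window held 4 E-boxes, Rag2 held 2 and Cpa3 held 2. Cpa3 also held 1 GATA motif, and none matched in Rag1 or Rag2. No E-box overlapped a GATA motif. Over 32817 windows of the same length, 72.3% held CANNTG, 17.6% held it 3 or more times, and 18.6% held AGATAA or TGATAA. A match of letters is a description and not evidence of binding.

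The second called lower gene, Entrez_100503944, has no name or position in the annotation used here. It had no count in any of the 5 α4β7 CLP libraries and 30.5 to 400.2 CPM in CLP (median 69.5), with counts in all 8. It was at least 41.7-fold lower in α4β7 CLP against a limit of 3 counts over that group (2.75 CPM; adjusted p = 0.0452), and at least 26.9-fold lower without CLP replicate 4, which had the 400.2 CPM. Its call is the least stable of the 5. It was lost in 7 of 13 fits that left out 1 library, namely CLP replicate 4 or 8 and each α4β7 CLP replicate in turn (adjusted p 0.0833 to 0.173).

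Apart from the fit, 16 genes (0.146% of those tested) had every α4β7 CLP library on one side of every CLP library, 8 above (0.0729%) and 8 below (0.0729%). Cpa3, Rag1 and Entrez_100503944 were among them. Among this many genes such order also arises by chance, at a rate that was not estimated here, so the order alone shows no difference. The others were not called, and they are given as values, chosen by that order. Tcf7, which encodes TCF-1, a factor of T cell and innate lymphoid precursors, was at 18.0, 62.7, 57.4, 12.4 and 31.1 CPM in α4β7 CLP, and had a count in 1 of 8 CLP libraries (8.2 CPM). Its log2 fold change was 4.45 ± 1.12 (adjusted p = 0.138), and it passed with DESeq2 (4.27, adjusted p = 0.0401) and limma-voom (2.90, adjusted p = 0.0406). Tcf7 overlaps Skp1, with 736 counts, in the annotation. The other genes above were Hdac5, a histone deacetylase, Apbb1ip, an adaptor that links the GTPase Rap1 to integrin activation, Grk3, a receptor kinase, the centriole gene Ccp110, the iron-sulfur cluster assembly gene Nubp2, and Wsb2. Apbb1ip was at 768.5, 725.7, 1057.5, 1182.3 and 836.7 CPM in α4β7 CLP, against 179.7 to 626.9 CPM in CLP (1.39 ± 0.46, adjusted p = 0.318). Hdac5 was at 114.8 to 318.2 CPM in α4β7 CLP and 0 to 58.7 CPM in CLP (2.92 ± 0.91, adjusted p = 0.27). It passed with limma-voom (2.84, adjusted p = 0.0448).

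Among the 8 genes below, Ets1, a lymphoid ETS factor, was at 42.0, 78.3, 24.6, 30.9 and 23.4 CPM in α4β7 CLP, against 97.7 to 277.7 CPM in CLP (median 168.9; −2.18 ± 0.57, adjusted p = 0.173). DESeq2 called it (−2.29, adjusted p = 0.00495). Myc, the growth-promoting transcription factor, was at 24.0, 65.3, 16.4, 43.3 and 42.8 CPM in α4β7 CLP, against 154.2 to 443.0 CPM in CLP (median 223.7; −2.63 ± 0.88, adjusted p = 0.318). It passed in the fit of the compared groups alone (−2.78, adjusted p = 0.0405), which called Rag1, Dntt and Myc. Meis1, a homeobox partner gene of stem and multipotent cells, was at 6.0, 2.6, 24.6, 6.2 and 3.9 CPM in α4β7 CLP, against 29.8 to 263.0 CPM in CLP (−3.51 ± 1.22, adjusted p = 0.349). Ebf1 is described with the B lineage genes. The folate carrier gene Slc19a1 and Impdh1, of guanine nucleotide synthesis, complete the set. Limma-voom called Slc19a1 (−3.37, adjusted p = 0.00714).

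**Figure D2:**
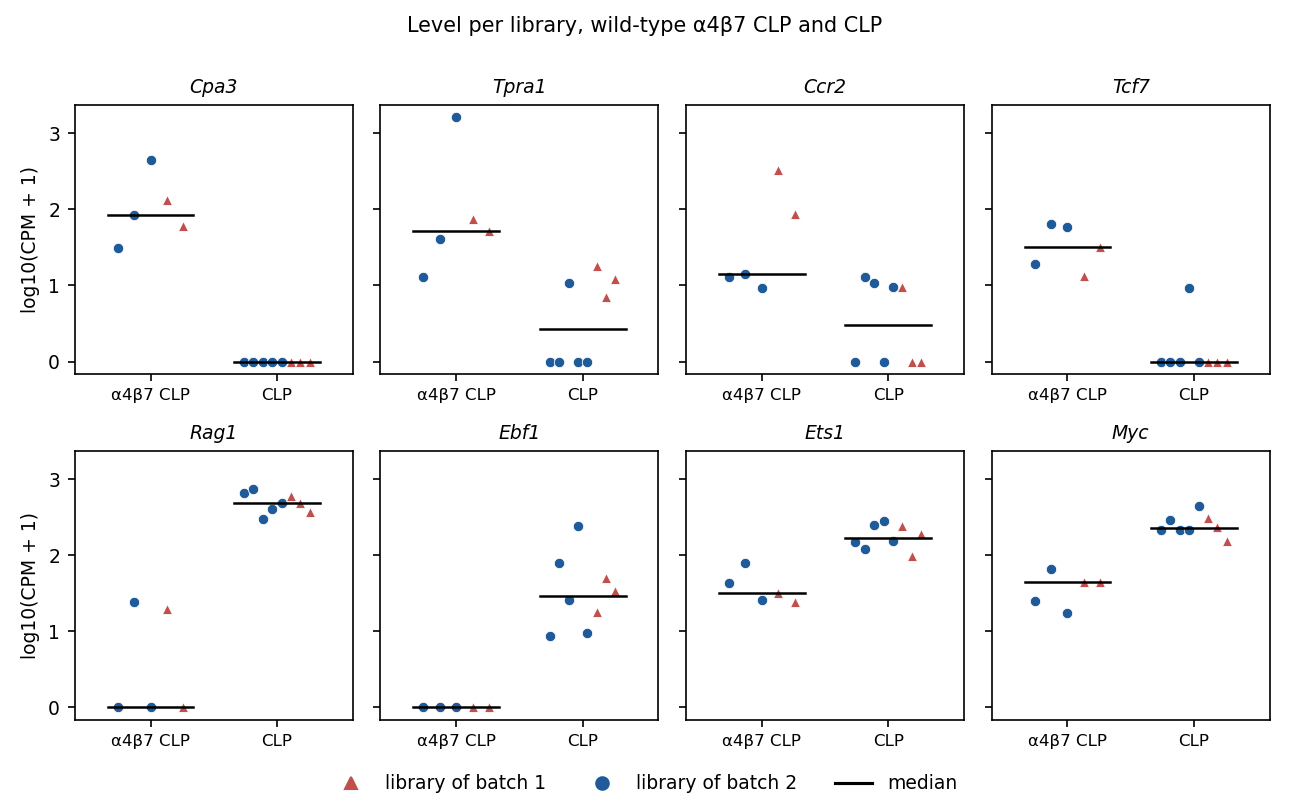
Levels as log10(CPM + 1) of 8 genes, with 1 point per library (triangles batch 1, circles batch 2) and a line at each group's median. All 5 α4β7 CLP libraries lay above all 8 CLP libraries for Cpa3 and Tcf7 and below them for Rag1, Ebf1, Ets1 and Myc, while Tpra1 and Ccr2 overlapped.

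Order was also compared within batches, a laxer criterion that every gene separated over all libraries also meets. More genes met it, and the share that chance gives was not estimated. Each α4β7 CLP library lay above each CLP library of its batch, in both batches, for 35 genes (0.319% of those tested), and below for 15 (0.137%). Besides the genes above these included Cd44, a hyaluronan receptor of migrating lymphoid cells, at 482.8 and 552.6 CPM in α4β7 CLP against 286.4 to 384.7 CPM in CLP of batch 1, and at 264.2 to 595.2 CPM against 73.5 to 225.1 CPM in batch 2 (1.24 ± 0.62, adjusted p = 0.655). E2f1, a factor of S phase entry, was at 120.6 and 136.2 CPM in α4β7 CLP against 44.1 to 85.5 CPM in CLP of batch 1, and at 49.2 to 252.2 CPM against 0 to 30.7 CPM in batch 2 (2.44 on the log2 scale, adjusted p = 0.592). Gimap4, a GTPase gene of lymphocyte survival, was at 0 and 24.8 CPM in α4β7 CLP against 42.4 to 146.6 CPM in CLP of batch 1, and at 0 to 7.8 CPM against 16.7 to 277.7 CPM in batch 2 (−4.08, adjusted p = 0.222). Gimap4 passed with DESeq2 (−4.31, adjusted p = 0.0447) and limma-voom (−3.94, adjusted p = 0.00633).

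Regulators of innate lymphoid development were sparse. Of 14 members tested 0 were called, and 2 had an unadjusted p under 0.05. With DESeq2 and limma-voom only Tcf7 of this list was called. Nfil3, which acts early in the innate lymphoid lineage, was at 0, 52.2, 82.0, 111.4 and 93.4 CPM in α4β7 CLP, against 0 to 75.2 CPM in CLP (median 3.8; 3.39 ± 1.32, adjusted p = 0.427). Of the 5 α4β7 CLP libraries 3 lay above every CLP library. Tox, needed for innate lymphoid precursors, was at 12, 57.4, 90.2, 99 and 163.5 CPM in α4β7 CLP, against 0 to 89.4 CPM in CLP (1.43 ± 0.80, adjusted p = 0.717). Id2, the E protein inhibitor of the innate lineages, was at 0, 5.2, 0, 235.2 and 93.4 CPM in α4β7 CLP, with its high values in batch 1, against 0 to 84.8 CPM in CLP (2.00 ± 1.17, adjusted p = 0.76). Id2 is also a marker of dendritic cells. Gata3 was at 6.2 to 73.9 CPM in α4β7 CLP and 0 to 588.1 CPM in CLP. Il18r1, a receptor chain gene also found in innate lymphoid precursors, had counts in all 13 libraries, at 6.0 to 139.4 CPM in α4β7 CLP and 29.4 to 152.7 CPM in CLP (−0.36 ± 0.71, adjusted p = 1). Other members were at or near 0. Zbtb16 was at 13.1 CPM in 1 α4β7 CLP library and 8.4 CPM in 1 CLP library, Tbx21, Eomes and Pdcd1 had counts in 1 α4β7 CLP library each (5.2, 12 and 2.6 CPM) and none in CLP, and Rora and Tox2 were at 0 throughout. The list's median log2 fold change was 1.43 over 11 members with counts, and 0.09 with members at 0 in 1 group set to their bound, so that median rests on genes near the detection limit.

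Of group 2 innate lymphoid genes 0 of 12 tested were called (0 with DESeq2 and limma-voom too, 4 with an unadjusted p under 0.05, 1 higher and 3 lower). Il17rb, a subunit of the interleukin 25 receptor, was at 126.1, 20.9, 24.6, 173.3 and 31.1 CPM in α4β7 CLP, against 0 to 66.1 CPM in CLP (median 2.4; 2.96 ± 0.88, adjusted p = 0.222). The 66.1 CPM belonged to CLP replicate 8, without which Il17rb passed (4.37, adjusted p = 0.0379). Of T lineage genes 0 of 18 tested were called with edgeR, 3 had an unadjusted p under 0.05, and Tcf7 passed with DESeq2 and limma-voom. Cd3e and Cd3g had no count in any of the 13 libraries, and Bcl11b, of T cell commitment, was at 6.0 CPM in 1 library of each group. Of natural killer genes 0 of 13 tested were called with any of the 3 tools and 1 had an unadjusted p under 0.05, with Klrb1c, Ncr1, Gzma and Gzmb at 0 throughout. The natural killer effector genes Prf1 (41.0 CPM) and Xcl1 (139.4 CPM) and the integrin gene Itgae (696.8 CPM) had counts in α4β7 CLP replicate 3 and in no other of the 13 libraries. Of Notch-responsive genes 0 of 6 tested were called with any of the 3 tools and 0 had an unadjusted p under 0.05. Hes1 was at 0, 15.7, 327.9, 61.9 and 15.6 CPM in α4β7 CLP, against 59.4 to 238.5 CPM in CLP (−0.55 ± 0.81, adjusted p = 1).

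Early B lineage genes were mostly lower in fitted value, and with edgeR none passed. Of 20 tested, 0 were called and 3 had an unadjusted p under 0.05, all lower, beside 3.14% of all genes tested. Fitted values were below 0 for 18 of the 19 with counts, and the median log2 fold change was −1.08, where 53.3% of all tested genes with counts lay above 0. With limma-voom Ebf1 (adjusted p = 0.00126) and Vpreb3 (−3.87, adjusted p = 0.0378) were called. Ebf1, the factor that specifies the B lineage, had no count in α4β7 CLP and was at 7.7 to 236.9 CPM in CLP (median 28.8), in all 8 libraries. It was at least 20.6-fold lower in α4β7 CLP than in CLP against the limit of 3 counts, and at least 11.3-fold lower without CLP replicate 4, with an adjusted p of 0.173 over all libraries. The surrogate light chain genes of the precursor B cell receptor had few counts in α4β7 CLP, but some CLP libraries had none either. In batch 1 the ranges in α4β7 CLP and CLP were 0 to 6.2 and 0 to 67.2 CPM for Igll1. They were 0 and 0 to 17.0 CPM for Vpreb2, and 0 to 37.1 and 0 to 77.1 CPM for Vpreb1. The highest CLP values of all 3 genes were in batch 2. Igll1 was at 6.2 CPM in α4β7 CLP replicate 4 and at 0 in the other α4β7 CLP libraries, against 0 to 122.3 CPM in CLP (median 36.9; −4.56 ± 1.48, adjusted p = 0.31). Vpreb2 was at 12 CPM in replicate 1 and at 0 in the other α4β7 CLP libraries, against 0 to 187.8 CPM in CLP (−3.99 ± 1.54, adjusted p = 0.424). Vpreb1 was at 8.2 and 37.1 CPM in 2 α4β7 CLP libraries and 0 in 3, against 0 to 262.4 CPM in CLP (−2.61 ± 1.40, adjusted p = 0.704).

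The early B lineage genes did not all stand low. Ly6d, a surface marker of B-biased CLP, was at 3110.0, 4320.4, 1672.4, 4320.5 and 5985.5 CPM in α4β7 CLP, against 1844.5 to 5970.2 CPM in CLP (0.21 ± 0.92, adjusted p = 1). Foxo1, which acts above Ebf1, was at 65.6 to 224.5 CPM in α4β7 CLP and 122.3 to 566.4 CPM in CLP (−1.16 ± 0.75, adjusted p = 0.799). For 3 further genes of the list, named after their values were seen, replicate 4 held nearly all the counts of the α4β7 CLP group. In it Vpreb3 was at 253.8, Pou2af1 at 61.9 and Irf4 at 80.5 CPM, and of these only Vpreb3 (15.7 CPM in replicate 2) had a count in another α4β7 CLP library. Without replicate 4 the list's median was −2.02. Pax5 had no count in any of the 13 libraries. Counts of the list were 0.253 to 0.412% in α4β7 CLP against 0.373 to 0.57% in CLP in batch 2, and 0.646 to 0.704% against 0.715 to 0.971% in batch 1, so batch moved this share as well. Of mature B and plasma cell markers 0 of 9 tested were called with any of the 3 tools (1 with an unadjusted p under 0.05, Jchain). Ighm was at 648.4, 1185.2 and 1082.1 CPM in the batch 2 α4β7 CLP libraries and at 0 in both of batch 1, against 0 to 2681.2 CPM in CLP.

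**Figure D3:**
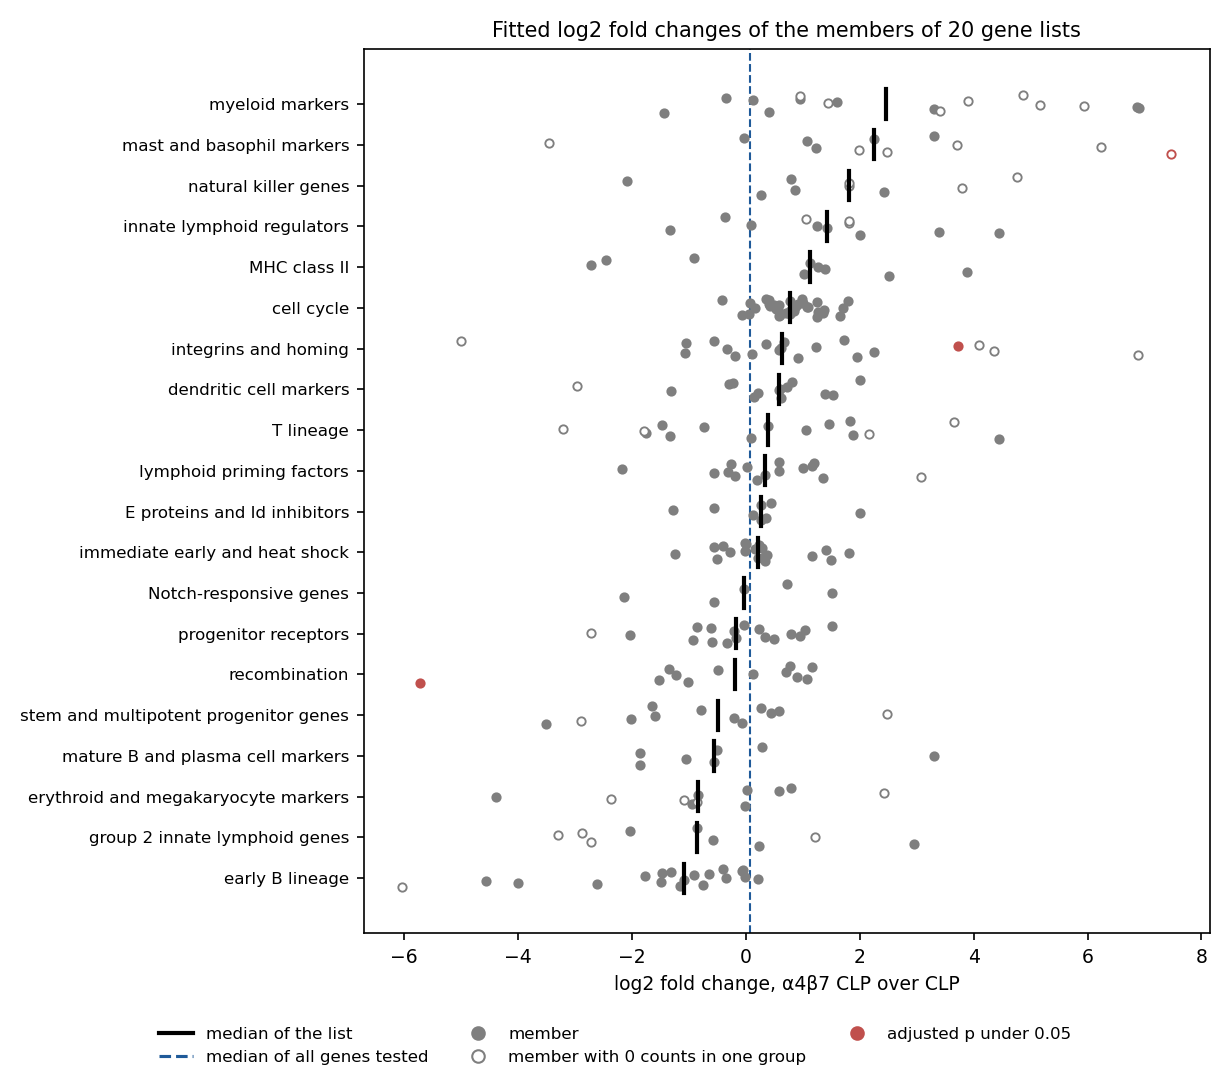
Fitted log2 fold changes (α4β7 CLP over CLP, x axis) of the tested members of 20 gene lists, 1 point per gene with a count in either group. Red marks the called genes, open points are genes with 0 counts in 1 group, whose fitted value is no estimate of size, black bars are list medians and the dashed line is the median of all tested genes, 0.08. Called members stand in the mast and basophil, integrin and homing, and recombination lists, and the early B lineage points lie mostly left of the dashed line.

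Of the integrin and homing genes, Ccr2 was the 1 called of 21 tested, and the median log2 fold change was 0.64. At an unadjusted p under 0.05 there were 7 higher, the sort markers Itga4 and Itgb7 with Ccr2, Itgae, Itgam, Ccr6 and Cd44, and 1 lower, S1pr1. Of all genes tested, 4.43% were higher and 3.14% lower at that threshold. Itgam, the αM chain of myeloid cells, was at 7.8, 86.7 and 15.6 CPM in replicates 2, 4 and 5 of α4β7 CLP and had no count in CLP. Ccr6 was at 24.6 and 58.4 CPM in α4β7 CLP replicates 3 and 5 and had no count in CLP. S1pr1, the receptor for exit into blood, had no count in α4β7 CLP and was found in 3 of 8 CLP libraries (up to 143.1 CPM; adjusted p = 0.274). Cxcr4, Itgal and the gut homing receptor gene Ccr9 (0 to 131.2 CPM in α4β7 CLP, 0 to 287.0 CPM in CLP) overlapped widely. Of progenitor receptors 0 of 17 tested were called with any of the 3 tools (2 with an unadjusted p under 0.05, both lower). Il2rg, the common γ chain, was at 36.0, 57.4, 8.2, 6.2 and 11.7 CPM in α4β7 CLP, against 29.8 to 158.8 CPM in CLP (median 128.9; −2.03 ± 0.69, adjusted p = 0.322). Kit was at 6.2 to 196.8 CPM in α4β7 CLP and 11.9 to 253.0 CPM in CLP.

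Of 15 lymphoid priming factors tested, 0 were called with edgeR, 4 had an unadjusted p under 0.05, and Ets1 passed with DESeq2. Ikzf1 was at 418.1 to 879.0 CPM in α4β7 CLP and 250.8 to 958.3 CPM in CLP (0.19 ± 0.47, adjusted p = 1). Lmo4, a LIM-domain cofactor, was at 204.1, 248.0, 180.4, 290.9 and 323.0 CPM in α4β7 CLP, against 55.1 to 184.0 CPM in CLP (1.2 ± 0.44, adjusted p = 0.366). The E protein genes Tcf3 (0.27 ± 0.73), Tcf4 (0.36 ± 0.44) and Tcf12 (0.13 ± 0.76) overlapped, and of 8 E protein and Id genes tested 0 were called with any of the 3 tools and 0 had an unadjusted p under 0.05. Stem and multipotent progenitor genes had 0 of 12 called with edgeR (2 with an unadjusted p under 0.05, both lower), a median of −0.49, and Meis1 as the member called with DESeq2 and limma-voom.

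Fitted values of cell cycle genes were mostly above 0, and no single gene passed. Of 35 tested, 0 were called with any of the 3 tools and 0 had an unadjusted p under 0.05. They were above 0 for 33 of 35, with a median log2 fold change of 0.78. Mki67, the proliferation antigen gene, was at 486.3, 1853.5, 352.5, 680.9 and 937.9 CPM in α4β7 CLP, against 59.6 to 627.8 CPM in CLP (median 391.9; 1.25 ± 1.06, adjusted p = 0.938). Kif11, a mitotic motor, was at 92.8 to 362.9 CPM in α4β7 CLP and 14.7 to 171.0 CPM in CLP (1.71 ± 0.88, adjusted p = 0.67). The list took 0.794 to 1.151% of counts in α4β7 CLP against 0.292 to 0.667% in CLP in batch 2, without overlap, and 0.947 and 1.129% against 0.861 to 1.021% in batch 1, with overlap. Cell cycle genes are transcribed together, so their number is no count of independent differences. Myc, as given above, had the opposite order.

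Markers of other cells were uneven between libraries. Counts of myeloid markers made up 0.977% of α4β7 CLP replicate 4, 0.012 to 0.076% of the other 4 α4β7 CLP libraries and 0.009 to 0.092% of CLP libraries. In replicate 4 the granulocyte genes S100a8 and S100a9 were at 4295.7 and 3670.6 CPM, Ngp at 290.9 and Camp at 266.2, while Elane and Ms4a3 had no count in any of the 13 libraries. In the other α4β7 CLP libraries S100a8 was at 0 to 108.1 CPM, against 0 to 11.9 CPM in CLP. Of 18 myeloid markers tested, 0 were called with edgeR, 7 had an unadjusted p under 0.05, all higher, and Ngp passed with DESeq2. Of all genes tested, 4.43% were higher at that unadjusted threshold. The list's median of 2.46 was 1.39 without replicate 4. Dendritic cell markers took 0.219 to 0.747% of counts in α4β7 CLP and 0.107 to 0.844% in CLP. In batch 2 the groups did not overlap (0.219 to 0.397% in α4β7 CLP, 0.107 to 0.207% in CLP), and in batch 1 they did (0.624 to 0.747% in α4β7 CLP, 0.411 to 0.844% in CLP). Of these markers 0 of 15 tested were called with any of the 3 tools (0 with an unadjusted p under 0.05). Siglech, a plasmacytoid dendritic cell receptor, was at 336.1 to 1050.7 CPM in α4β7 CLP and 49.0 to 1281.0 CPM in CLP. Irf8, which also acts in lymphoid progenitors, was at 576.4 to 3549.3 CPM in α4β7 CLP and 25.1 to 4199.3 CPM in CLP (1.53 ± 0.88, adjusted p = 0.747). In batch 2 Irf8 was at 576.4 to 1260.9 CPM in α4β7 CLP and 25.1 to 306.7 CPM in CLP, and in batch 1 at 3255.9 to 3549.3 CPM in α4β7 CLP and 1773.4 to 4199.3 CPM in CLP. The part of dendritic cells in other differences was not tested. Of MHC class II genes 0 of 9 tested were called with any of the 3 tools (4 with an unadjusted p under 0.05, H2-Eb1 and H2-Aa higher, H2-Oa and H2-DMa lower). H2-Eb1 was at 18.0, 41.8, 0, 49.5 and 190.7 CPM in α4β7 CLP, against 0 to 17.0 CPM in CLP (3.88 ± 1.11, adjusted p = 0.2).

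**Figure D4:**
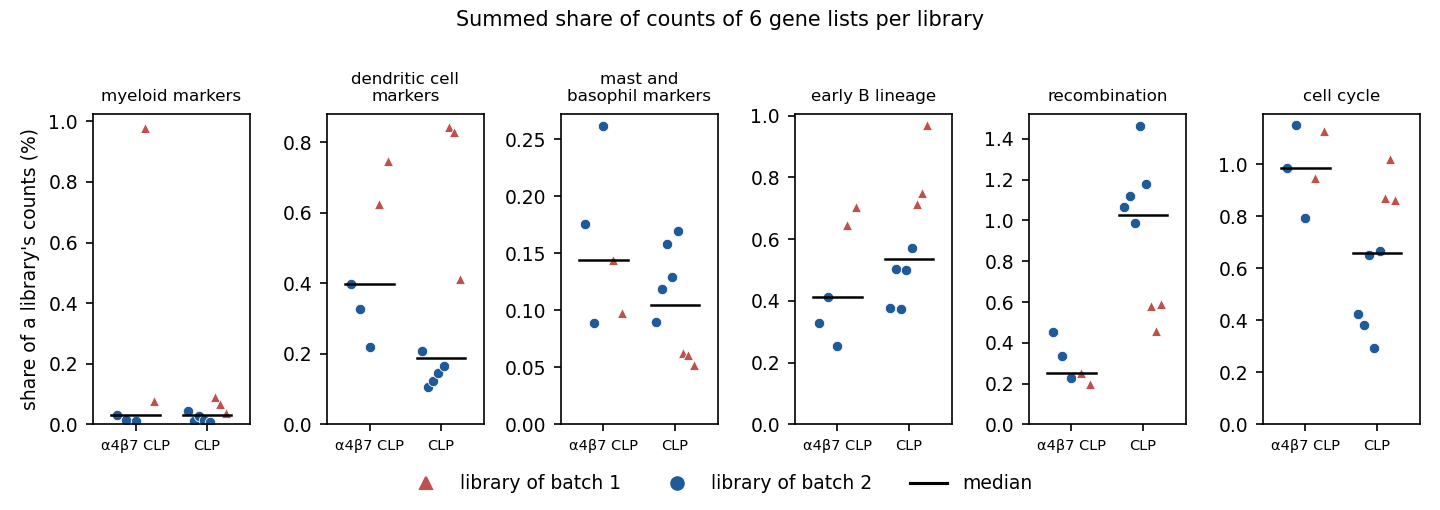
Share of a library's counts (%, axis from 0) taken by 6 gene lists, with 1 point per library (triangles batch 1, circles batch 2) and a line at each group's median. The myeloid share of α4β7 CLP replicate 4 was 0.977% against at most 0.092% in CLP, and the recombination share was at most 0.453% in α4β7 CLP against at least 0.456% in CLP, most of it from Dntt.

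Erythroid and megakaryocyte markers had 0 of 14 called with any of the 3 tools (1 with an unadjusted p under 0.05, lower), with Gata1, Epor and Pf4 at 0 throughout. Immediate early and heat shock genes, which respond to handling, had 0 of 19 called with any of the 3 tools, 0 with an unadjusted p under 0.05 and a median of 0.22. Their share was 0.983% in α4β7 CLP replicate 3, the library apart on the second axis, 0.289 to 0.769% in the other α4β7 CLP libraries and 0.259 to 0.935% in CLP. Fosb (852.6 CPM), Nr4a1 (623.0 CPM) and Zfp36 (1369.1 CPM) were highest there. The part of handling in the replicate 3 values of Tpra1 and Cpa3 was not tested.

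The genes next in rank by p, none of them called with edgeR, were mostly sparse. On the higher side Faah, a fatty acid amide hydrolase, was at 18.0, 5.2, 565.7, 49.5 and 15.6 CPM in α4β7 CLP, against 0 to 30.7 CPM in CLP (3.56 ± 0.88, adjusted p = 0.138). DESeq2 called Faah (3.74, adjusted p = 0.0401). Fhod1, a formin of the actin skeleton, was at 6.0, 0, 123.0, 12.4 and 54.5 CPM in α4β7 CLP and had no count in CLP (adjusted p = 0.0719). Zbtb21 reached 1380.9 CPM in α4β7 CLP replicate 1 and 5.2 to 99 CPM in the others, against 0 to 65.6 CPM in CLP. Naip2, Spef1, Ttc30a1, Rpusd3, Magi2 and the neutrophil collagenase gene Mmp8 (36.0 and 222.8 CPM in replicates 1 and 4) had no count in CLP and none in 1 or more α4β7 CLP libraries. On the lower side Lax1, an adaptor of lymphocyte receptor signalling, was at 36.0, 10.4, 0, 0 and 3.9 CPM in α4β7 CLP, against 35.8 to 352.3 CPM in CLP (median 131.3; −3.90 ± 1.07, adjusted p = 0.189). Lax1 passed with DESeq2 (−4.10, adjusted p = 0.000117) and with limma-voom (−4.16, adjusted p = 0.000204). Its groups touched only where replicate 1 of α4β7 CLP (36.0 CPM) met the lowest CLP library (35.8 CPM). Rgs8, Trem1, Patj, Pgr, P2ry12 and the prostaglandin receptor gene Ptger2 had no count in α4β7 CLP and were found in 4 to 7 of 8 CLP libraries. Limma-voom called Rgs8 (adjusted p = 0.000202), Trem1 (adjusted p = 0.000275), Patj (adjusted p = 0.0194), Pgr (adjusted p = 0.0273) and Ptger2 (adjusted p = 0.0448). DESeq2 called none of them, and P2ry12 passed with neither tool.

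Other libraries of the series give the same genes in samples that did not enter the contrast, though they share the fit's estimate of spread. CLP came also from mice labelled TCF7-/- (5 libraries) and Id2-/- (2 libraries). Their Tcf7 and Id2 tags do not check those labels, since Tcf7 was at 0 to 26.8 CPM in TCF7-/- CLP and 0 to 8.2 CPM in wild-type CLP, and no source used here gives the extent of the deletions. Rag1 was at most 23.5 CPM in α4β7 CLP, against 178.9 to 608.0 CPM in TCF7-/- CLP and 137.8 to 345.6 CPM in Id2-/- CLP. Cpa3 was at least 30.0 CPM in α4β7 CLP, against 0 in 6 of these 7 knockout libraries and 19.6 CPM in the other. The order of α4β7 CLP and CLP for both genes thus held in knockout CLP too. Only the CLP side is new here, since the 5 α4β7 CLP libraries are the same, so their values were not checked. Ets1 was at most 78.3 CPM in α4β7 CLP, against 104.5 to 243.7 CPM in TCF7-/- CLP and 87.4 to 124.0 CPM in Id2-/- CLP. Myc was at most 65.3 CPM in α4β7 CLP, against 119.3 to 333.6 CPM in TCF7-/- CLP and 210.5 to 358.3 CPM in Id2-/- CLP. Ccr2 did not keep the order, at 8.2 to 328.1 CPM in α4β7 CLP against 12.8 to 49.7 CPM in TCF7-/- CLP and 27.6 to 190.7 CPM in Id2-/- CLP. Nor did Tcf7, at 12.4 to 62.7 CPM in α4β7 CLP against 0 to 26.8 CPM in TCF7-/- CLP and 0 in Id2-/- CLP. The same held for 4 other genes. Tpra1 was at 12 to 1606.8 CPM in α4β7 CLP, against 0 to 81.0 CPM in TCF7-/- CLP and 0 to 23.8 CPM in Id2-/- CLP. Entrez_100503944 and Ebf1, at 0 in α4β7 CLP, were also at 0 in 1 TCF7-/- CLP library each, and Ebf1 in 1 Id2-/- CLP library. Dntt was at 1439.9 to 4514.9 CPM in α4β7 CLP, against 3518.0 to 7072.1 CPM in TCF7-/- CLP and 1894.7 to 1936.0 CPM in Id2-/- CLP.

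Wild-type common innate lymphoid progenitors (CILP, 7 libraries) are a later stage of the innate branch. Cpa3 was at 30.0 to 442.7 CPM in α4β7 CLP and 36.6 to 612.8 CPM in CILP (median 286.3), which overlapped. Ccr2 was at 8.2 to 328.1 CPM in α4β7 CLP and 296.8 to 1207.1 CPM in CILP (median 739.8). Tcf7 was at 12.4 to 62.7 CPM in α4β7 CLP, between CILP (166.2 to 779.2 CPM) and CLP (0 to 8.2 CPM) without overlap. Yet CILP labelled TCF7-/- held 0 to 63.4 CPM of Tcf7, a range that spans the α4β7 CLP values. Rag1 was at 0 to 23.5 CPM in α4β7 CLP and 0 to 171.0 CPM in CILP (median 0), both below all of CLP. Ets1 ran otherwise, at 23.4 to 78.3 CPM in α4β7 CLP, 308.7 to 3268.6 CPM in CILP and 97.7 to 277.7 CPM in CLP. These levels are descriptions and were not tested.

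**Figure D5:**
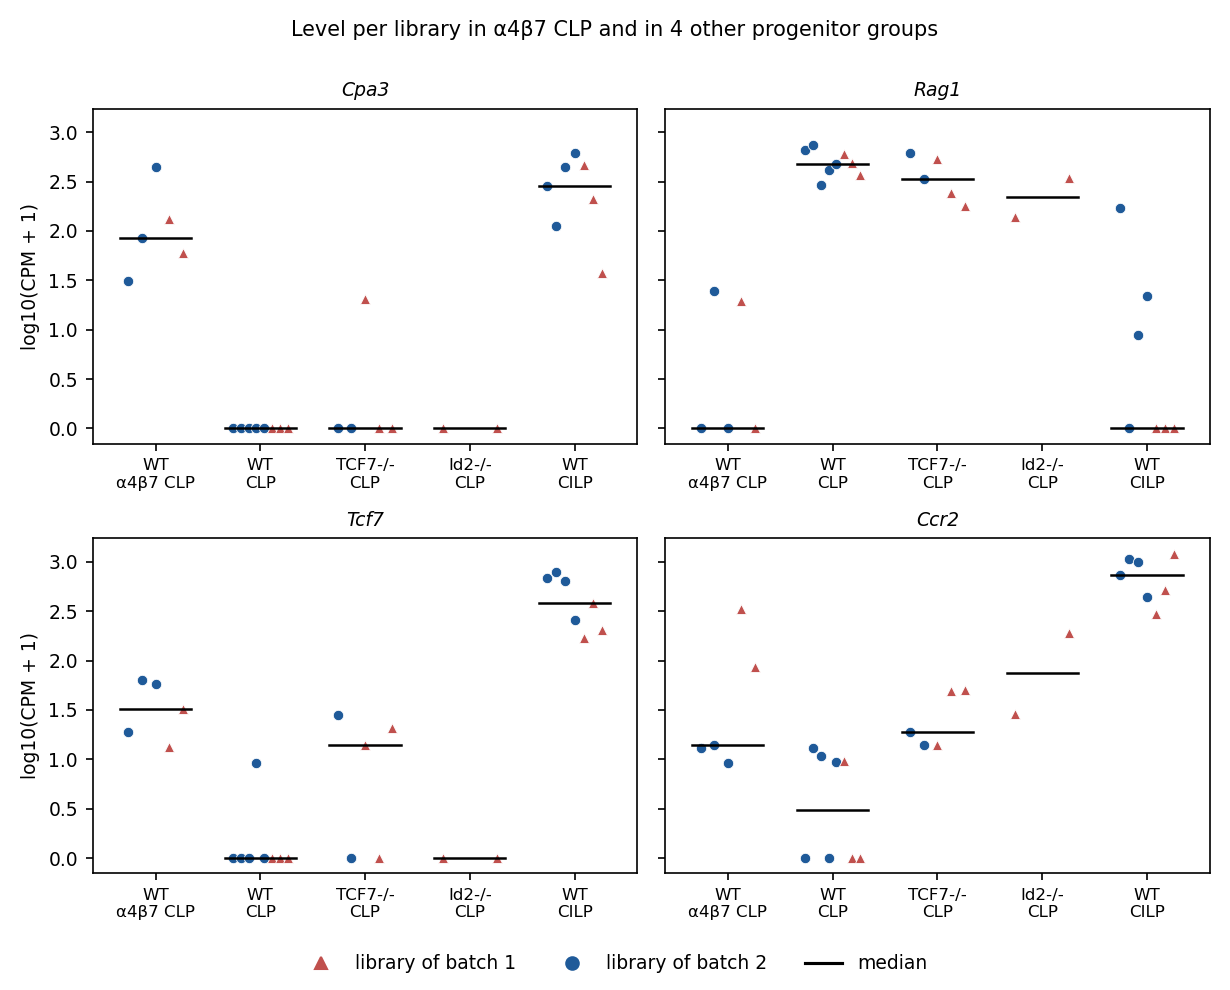
Levels as log10(CPM + 1) of Cpa3, Rag1, Tcf7 and Ccr2 in α4β7 CLP and 4 other groups (WT is wild type), with 1 point per library (triangles batch 1, circles batch 2) and a line at the median of the plotted values. Rag1 was at most 23.5 CPM in α4β7 CLP and at least 137.8 CPM in wild-type, TCF7-/- and Id2-/- CLP, and Cpa3 was above 0 in all α4β7 CLP and CILP libraries.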

How the data were processed

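RNA of 100-cell pools was read by CEL-seq, a 3′-biased method, with bead clean-ups, DNase treatment and acoustic fragmentation, per the labels' protocols. The authors deposited raw read counts per gene. The submitters' processing notes name CASAVA 1.8.2, featureCounts, limma, edgeR 3.8.2 and 3.22.0, and mm10. The aligner, and whether counting used strand or molecular identifiers, are not given in the sources used here, so bounds cover counting error only. Of 27179 gene IDs, 25275 (92.99%) matched RefSeq GRCm38.p6, the source of symbols and coordinates. Replicates were numbered in accession order, which names them only.

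From the deposited counts, 4 technical repeats were summed into their parents. The 12 control wells, 6 Nfil libraries and 1 labelled outlier were left out. The other 47 libraries were fitted with edgeR 4.0.16 in R 4.3.3 (TMM, filterByExpr with a minimum count of 10 and total of 15, robust quasi-likelihood, group means plus batch). This left 10972 genes and 35 residual degrees of freedom, with a common biological coefficient of variation of 109.7%. CPM values are counts over the library's total of tested genes times TMM factor. SE is the log2 fold change over the square root of F. A gene at 0 in 1 group has a bound at 3 counts over that group. The fitting code was tested on simulated data. Changed genes were drawn from those above a minimum mean level in CLP, so the rates do not cover genes without counts in CLP, such as Cpa3. Of genes raised 64-fold 48 of 50 tested were recovered, and of genes raised 8-fold 27 of 50. For lowered genes these were 28 of 46 and 8 of 48. Of 121 calls there, 10 were on unchanged genes, so a call can also be false. Given the recovery rates, a gene without a call may still differ, above all a lower one.

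The 21 gene lists and their members (320 genes) were chosen with earlier results of these data known. Named are the sort markers, called genes, the 3 members of each list with the smallest p and the 10 genes next in rank each way (same sign in both batches, and a mean of 20 CPM or more where higher), 80 in all. Other list members, and genes ordered without overlap or within batches, were named after their values were seen. Alternatives were DESeq2 1.42.0, DESeq2 size factors in edgeR, limma-voom (limma 3.58.1), no filter, fewer groups, no batch term, each batch alone, no technical repeats and each library left out. Results for some genes are not reported here.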

Additional observations from a re-analysis of the deposited data

Results flagged for a closer look

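Of 128 groups of values tested for a library far from the others of its group (log2 of CPM + 1), 20 held one. For normal values chance gives about 1 in 20, but a group with counts in 1 library alone is always flagged. These rates therefore cannot be compared. Most are single libraries with, or without, a few counts of a sparse gene. In α4β7 CLP replicate 3, Itgb7 (16.4 CPM), Ccne2 (0 CPM) and H2-Oa (0 CPM) were far below the other α4β7 CLP libraries, and Itgae (696.8 CPM), Prf1 (41.0 CPM) and Xcl1 (139.4 CPM) were far above. In the other α4β7 CLP libraries, Nfil3 was low in replicate 1 (0 CPM), and Vpreb2 in replicate 1 (12 CPM), Igll1 in replicate 4 (6.2 CPM), and Hes5 (11.7 CPM) and Car1 (7.8 CPM) in replicate 5 were high. Among CLP libraries the high values were Tcf7 in replicate 4 (8.2 CPM), Il17rb in replicate 8 (66.1 CPM), Klrk1 in replicate 6 (8.5 CPM), Hdc in replicate 2 (41.7 CPM) and Cd200r3 in replicate 1 (23.0 CPM). The low ones, each at 0 CPM, were Ighm in replicate 8, H2-Oa in replicate 1, Rgs8 in replicate 5 and Trem1 in replicate 3.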

How the results depend on the processing

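The count of called genes (5) was 13 with DESeq2, 28 with limma-voom, 33 with no filter (17710 genes tested), 3 with only the compared groups (3836 tested), 3 with wild-type libraries only, 3 with no batch term, 2 in batch 1 alone and 0 in batch 2 alone (399 at an unadjusted p under 0.05). Leaving out 1 library gave 2 to 6, with 2 without α4β7 CLP replicate 3 and 3 without replicate 1 or 5. Leaving out α4β7 CLP replicates 3 and 4 together, chosen after seeing the data, gave 0 (579 at an unadjusted p under 0.05). The DESeq2, limma-voom and no-filter calls each included all 5. The no-batch calls were 3 higher and 0 lower, against 3 higher and 2 lower, and those of the compared groups 0 higher and 3 lower. The fit of the compared groups gave values for 24 of the 80 named genes. A call missing from it can therefore be a gene that the filter left untested. Of 1779 values of 80 named genes, 1704 kept direction and side of the threshold, 29 lost and 36 gained a call, and 10 reversed, in 8 genes. DESeq2 gave an adjusted p for 53 of the 80. The reversed log2 fold changes were Tcf4 −0.26, Notch2 −0.17, Klrk1 −2.05, Irf8 −0.02 and Ccna2 −0.27 in batch 1 alone, Prf1 −0.07 with limma-voom, Prf1 and Cd200r3 at −0.16 and −0.09 without α4β7 CLP replicate 3 (leaving out any 1 library gave −0.16 to 4.32 and −0.09 to 5.39), and Notch2 −0.03 and Nr4a1 −0.85 without replicates 3 and 4. The cause was not tested. Genes out of overlap numbered 18, not 16, with CPM from totals or no filter. Of 252 list medians 27 moved by more than the spread. No paired analysis was possible because the labels give no replicate numbers. The fold bounds with 1 library left out and the recombination share without Dntt were also chosen after seeing the data. Depth limits genes near 3 counts a group.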
